A study of Mus musculus with 40 samples.

Results

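Hair keratins and keratin-associated proteins (KAPs) are the structural proteins of the hair follicle and its shaft. The genes described here are the rows of the expression table whose symbol begins with Krtap or names a hair, inner root sheath or companion layer keratin (Krt25 to Krt28, Krt31 to Krt39, Krt71 to Krt75 and Krt81 to Krt86). Of 23812 rows, 73 matched: 52 KAP genes and 21 keratin genes. Krt33a and Krt33b carry a letter after the number and so did not match. A floor of at least 1 FPKM (fragments mapped, scaled for transcript length and library size) in at least 4 of the 16 skin libraries kept 4 of the 73: Krtap3-2, Krtap3-3, Krt32 and Krt75. The floor used the level itself, so the level of these 4 is a description and not a finding.

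RNA sequencing was done on 40 mouse libraries in 10 groups of 4, of which 16 are ear skin. Cre skin came from mice with the allele Mrgprdtm1.1(cre)And on a B6.129S1(Cg) background, so that Cre is made from Mrgprd, a receptor gene of nonpeptidergic sensory neurons. DTR skin came from these mice crossed to C57BL/6 mice with the allele Gt(ROSA)26Sortm1(HBEGF)Awai, in which cells with Cre express a diphtheria toxin receptor and die when toxin (DT) is given, here for 3 to 4 weeks by the IP route. Both groups are labelled with a 4:1 mix of acetone and olive oil. The series text gives DT to the Cre mice too, but their treatment label does not list it, so the toxin exposure of the Cre group is not settled. PBS skin and β-alanine skin came from wild-type C57BL/6J mice whose ears received PBS or 50 mM β-alanine, a ligand of the MRGPRD receptor, once daily for 2 days. The 24 other libraries are mast cells. Of these, 8 were sorted from Cre or DTR mice and 16 were grown from C57BL/6J peritoneum, either for 6 h with vehicle or 4 mM glutamate or for 48 h with vehicle or 50 uM NS102. The labels give no age, sex or hair cycle stage, and they do not say whether the 4 libraries of a group are separate animals, so p-values measure only the spread between these libraries. The skin samples carry the label Epidermal while the series text describes whole ear. The keratinocyte genes Krt5 (1714 to 2244 FPKM) and Krt14 (1820 to 2823 FPKM) were high in all 16 skin libraries, and 14 skeletal muscle genes summed to 1131 FPKM or more in each.

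A hair grows from matrix cells at the base of the follicle. As these cells differentiate, type I and type II hair keratins pair into filaments of the shaft, and KAPs fill and cross-link the space between the filaments. Inner root sheath keratins form the mould around the growing shaft, and the companion layer lies between that mould and the outer sheath. Most of these genes are transcribed while the follicle is growing (anagen) and are nearly silent while it rests (telogen), and transcription factors such as HOXC13, FOXN1 and LEF1 act on the programme. Follicles of one ear can be in the same stage, so the genes are read here library by library.

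The promoters of the Krtap3 family are shown because its 3 genes lie side by side on chromosome 11 and differ widely in level. Krtap3-2 and Krtap3-3 were the 2 highest genes of the set and were present in every skin library, whereas Krtap3-1 passed 1 FPKM in 1 library. In the deposited coordinates (mm9) Krtap3-3 lies at chr11:99411445-99412177, Krtap3-2 at chr11:99417136-99418167 and Krtap3-1 at chr11:99427340-99427944. The 250 bases before each start site are RefSeq sequence of build GRCm38.p6, minus strand, at chr11:99566631-99566880 for Krtap3-1, chr11:99556854-99557103 for Krtap3-2 and chr11:99550864-99551113 for Krtap3-3. Capitals mark matches on either strand to the motif TATANA, a form of the core promoter box, and to TTTAT, the core bound by posterior HOX proteins.
Krtap3-1: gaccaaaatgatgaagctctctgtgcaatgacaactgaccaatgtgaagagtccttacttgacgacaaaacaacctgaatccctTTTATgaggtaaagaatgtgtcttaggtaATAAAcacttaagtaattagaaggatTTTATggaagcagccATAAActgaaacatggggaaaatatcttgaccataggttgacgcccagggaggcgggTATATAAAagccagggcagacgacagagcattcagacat
Krtap3-2: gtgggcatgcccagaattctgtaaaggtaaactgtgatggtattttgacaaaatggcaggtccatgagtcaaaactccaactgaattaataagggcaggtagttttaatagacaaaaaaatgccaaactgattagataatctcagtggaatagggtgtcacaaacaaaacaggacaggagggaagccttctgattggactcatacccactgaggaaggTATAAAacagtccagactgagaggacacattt
Krtap3-3: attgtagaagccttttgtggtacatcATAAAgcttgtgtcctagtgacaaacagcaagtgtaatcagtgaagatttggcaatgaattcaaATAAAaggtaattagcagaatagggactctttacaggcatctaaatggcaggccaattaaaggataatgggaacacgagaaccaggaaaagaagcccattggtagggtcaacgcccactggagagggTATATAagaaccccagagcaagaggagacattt
A TATANA match begins 39, 32 and 33 bases before the start site in Krtap3-1, Krtap3-2 and Krtap3-3. TTTAT matched 5 times in Krtap3-1, 1 time in Krtap3-2 and 2 times in Krtap3-3, and a match can lie inside TATAAA, which holds the reverse complement of TTTAT. Aligned end to end, with gaps counted as differences, the promoters were 53.0% to 54.6% identical between the 3 pairs. RefSeq windows were found for 62 of the 73 genes. TATANA was present in 58 of these 62 (93.5%), against 22.6% of all 32851 promoter windows of the same length. TTTAT was present in 57 of 62 (91.9%) against 37.3% of all windows, and CTTTGA, the core bound by LEF1 and TCF proteins, in 17 of 62 (27.4%) against 13.8%. Such matches describe letters in the window and not binding.

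Most of the 73 genes were near 0 in most skin libraries. Of the 69 below the floor, 29 reached 1 FPKM in at least 1 skin library, 65 were above 0 in at least 1, and 4 (Krtap31-2, Krtap27-1, Krtap13 and Krtap20-2) were listed at 0 in all 16. Krt32 had the lowest mean level of the kept genes and was at or above 1 FPKM in 15 libraries. Krt84, a type II hair keratin, lay just outside the floor with 3 libraries (1.45 FPKM in PBS 1, 2.52 FPKM in PBS 2 and 1.28 FPKM in β-alanine 1). Of the rest, 7 genes reached 1 FPKM in 2 libraries: Krt25, Krt27, Krt28, Krt71, Krtap22-2, Krtap8-1 and Krtap7-1.

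A single library, Cre replicate 2, stood apart from the other 15 in these genes. The levels of the 69 genes below the floor summed to 99.6 FPKM there, against 3.67, 2.62 and 5.20 FPKM in Cre replicates 1, 3 and 4. The sum was 3.79, 4.23, 6.39 and 2.81 FPKM in DTR replicates 1 to 4, and 4.97, 4.75, 3.69 and 4.27 FPKM in PBS replicates 1 to 4. In β-alanine replicates 1 to 4 it was 4.36, 3.18, 3.22 and 15.2 FPKM. Cre 2 was thus the highest of the 16, β-alanine 4 the next, and the other 14 lay between 2.62 and 6.39 FPKM with a median of 4.01 FPKM. The mean of the Cre group was 27.8 ± 47.9 FPKM (SD, n = 4) with Cre 2 and 3.83 ± 1.29 FPKM (SD, n = 3) without it, beside 4.31 ± 1.51 in DTR, 4.42 ± 0.565 in PBS and 6.50 ± 5.86 FPKM in β-alanine skin (SD, n = 4 each). The order of the Cre group among the 4 groups is therefore set by 1 library, and without it the ranges of all 4 groups overlapped.

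**Figure D1:**
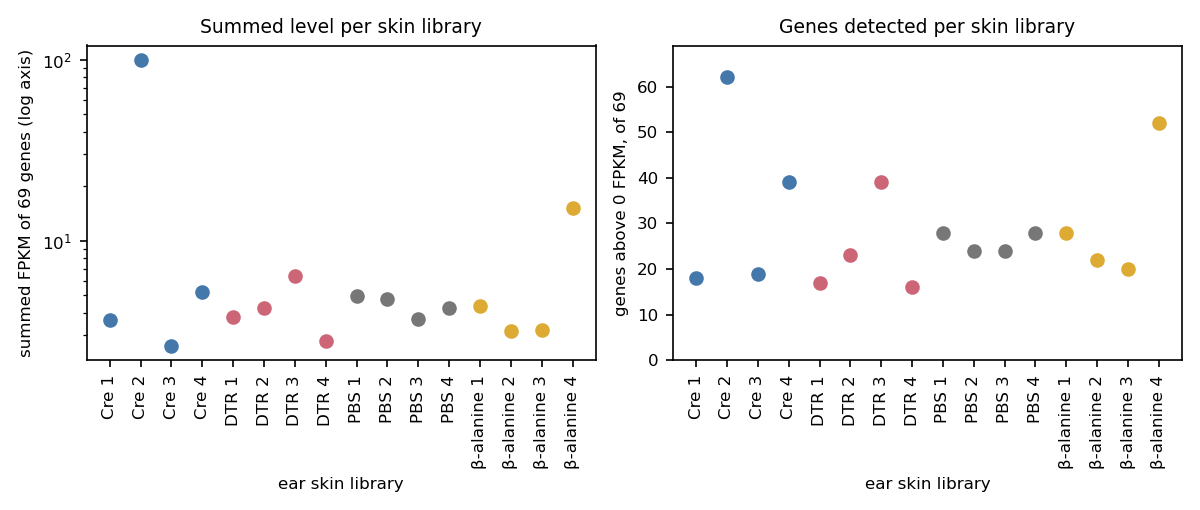
Each point is 1 of 16 ear skin libraries; the left axis is the summed FPKM of the 69 genes below the floor (log scale) and the right axis is how many of the 69 were above 0 FPKM. Cre 2 (99.6 FPKM, 62 genes) and β-alanine 4 (15.2 FPKM, 52 genes) lie above the other 14 libraries on both axes.

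Detection moved with the level. In Cre 2, 62 of the 69 genes were above 0 (89.9%) and 27 were at or above 1 FPKM. In β-alanine 4, 52 were above 0 and 5 at or above 1 FPKM. The other 14 libraries had 16 to 39 genes above 0 and at most 1 at or above 1 FPKM. Over all rows of the table the libraries were alike, with 72.2% to 74.3% of rows above 0 in each skin library. Of the 69 genes detected in skin, those kept included, 58 (84.1%) had their highest value in Cre 2, where 3.00% of all 19448 detected rows had theirs.

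Rows that stood far above every other library in Cre 2 lay in these loci. In the whole table, 32 rows were at or above 1 FPKM in Cre 2 and above double the highest of the other 15 libraries. Of these, 26 (81.2%) were among the 73 genes, and the other 6 (Gm10229, Gm10228, 1110025L11Rik, Gm11938, Gm11562 and Gm11559) lay within the spans of the same genes on chromosomes 11 and 16. The 15 other libraries had 0 to 16 such rows each, and none of those rows was among the 73 genes. These names were chosen after their values were seen.

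KAP genes, which are also most of the genes below the floor, made up most of the summed level. The sums are not divided by the number of genes. In Cre 2 the KAP genes of chromosome 16, a cluster rich in KAPs of high glycine and tyrosine content, summed to 60.8 FPKM, against 0.362 to 2.76 FPKM in the 14 libraries other than Cre 2 and β-alanine 4. Krtap22-2 was at 7.83 FPKM in Cre 2 and at 1.15 FPKM in Cre 4, the next highest, and was listed at 0 in 7 of 16 libraries. Krtap19-9b was at 6.94 FPKM in Cre 2 and at most 0.467 FPKM elsewhere. Krtap7-1 was at 6.61 FPKM in Cre 2, 1.09 FPKM in β-alanine 4 and at most 0.357 FPKM in the rest. Of the 23 KAP genes on chromosome 16, 19 were highest in Cre 2 and 15 reached 1 FPKM there. The KAP genes of chromosome 11 below the floor summed to 17.2 FPKM in Cre 2 and to 0.0488 to 1.68 FPKM in the 14 libraries. Krtap3-1, of this cluster, was at 2.92 FPKM in Cre 2, 0.917 FPKM in β-alanine 4 and at most 0.269 FPKM elsewhere, and it was listed at 0 in 8 libraries. The 5 KAP genes of chromosome 7 summed to 2.06 FPKM in Cre 2 and the 3 of chromosome 10 to 0.941 FPKM, with at most 0.0633 and 0.0601 FPKM in the 14 libraries.

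Keratins of the inner root sheath were also high in Cre 2. Krt25, a type I keratin of the sheath, was at 4.23 FPKM in Cre 2, at 1.44 FPKM in β-alanine 4 and between 0.0521 and 0.551 FPKM in the other 14 libraries. Krt71, a type II keratin of the sheath, followed the same order, with 4.04 FPKM in Cre 2, 1.17 FPKM in β-alanine 4 and 0.0255 to 0.653 FPKM in the rest. For both genes the highest of those 14 was DTR 3. Krt27 reached 2.43 FPKM in Cre 2 and 1.24 FPKM in β-alanine 4. Krt28 did not share this order: it was at 0.746 FPKM in Cre 2 and highest in DTR 2 (1.51 FPKM) and DTR 1 (1.49 FPKM).

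In Cre 2 hair keratins had lower sums than the KAP genes of chromosomes 11 and 16. These sums run over unlike numbers of genes. The set holds 6 type I and 6 type II hair keratins, and 21 and 23 KAP genes on those chromosomes. Type I hair keratins below the floor summed to 2.22 FPKM in Cre 2 and type II hair keratins to 3.97 FPKM. Krt86, a type II hair keratin, was at 1.42 FPKM in Cre 2 and at most 0.137 FPKM in the other 15 skin libraries. Its transcript is 95.1% identical to that of Krt81 over 1395 bases, so reads can be split between them. Krt84 was not raised in Cre 2, where its 0.194 FPKM lay within the 0.133 to 0.270 FPKM of the other Cre libraries. It was at 0.229 to 0.380 FPKM in DTR, 0.904 to 2.52 FPKM in PBS and 0.475 to 1.28 FPKM in β-alanine skin. For Krt84 the Cre and DTR libraries thus all lay below the PBS and β-alanine libraries. Of all genes tested, 36.5% were lower in every Cre library than in every PBS library. Krt84 was too low to be among those tested.

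**Figure D2:**
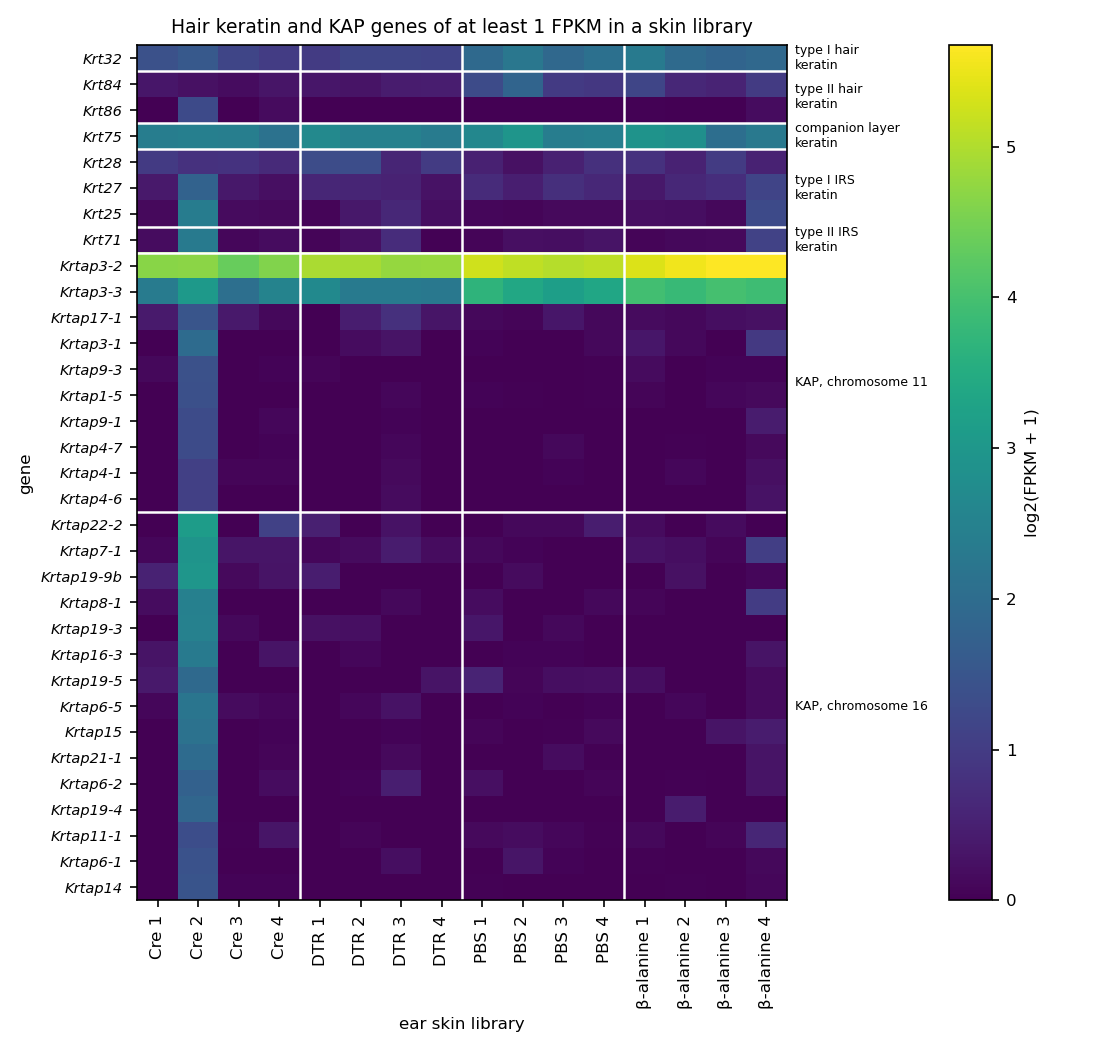
Rows are the 33 genes that reached 1 FPKM in at least 1 skin library, grouped by class, columns are the 16 ear skin libraries, and colour is log2(FPKM + 1). Of the 29 rows below the floor, 27 reached 1 FPKM in Cre 2, so the choice of rows favours that column; Krtap3-2, Krtap3-3, Krt32 and Krt75 are above 0 in every column.

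The makeup of the signal differed between the 2 high libraries. KAP genes below the floor were 81.3% of the summed level in Cre 2 and 54.3% in β-alanine 4, and inner root sheath keratins were 12.5% and 31.3%. Summed KAP level divided by summed inner root sheath keratin level was 6.50 in Cre 2, 1.73 in β-alanine 4, 2.87 in Cre 4 and 0.402 to 1.49 in the other 13 libraries. Cre 2 exceeded β-alanine 4 by 13.7 times in the KAP genes of chromosome 16 and by 2.61 times in the inner root sheath keratins. With 1 library each, these ratios have no replicate check.

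**Figure D3:**
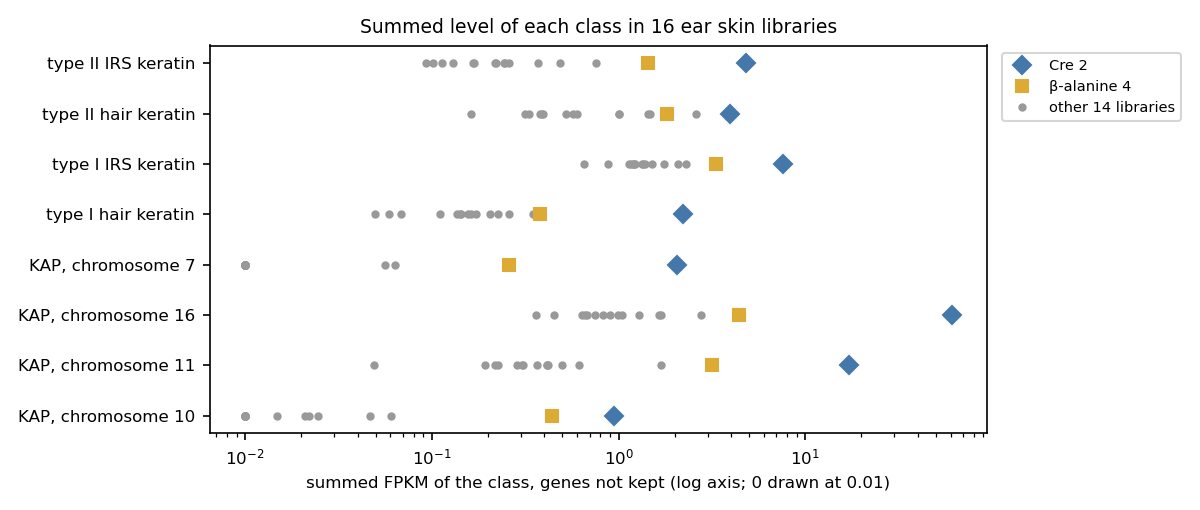
Each row is a class of genes below the floor and each point is its summed FPKM (log axis, 0 drawn at 0.01) in 1 of 16 ear skin libraries. Cre 2 is the highest point in all 8 classes, with 60.8 FPKM for the KAP genes of chromosome 16.

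Genes that control the programme were also compared by their highest library. Of 26 regulators of the hair matrix and shaft, 23 reached 1 FPKM in skin, and 0 of the 23 had their highest value in Cre 2. Over all detected rows the share was 3.00%, so counts of 0 in lists of this size, here and below, are near that share. Hoxc13, an activator of hair keratin genes, had 2.44 FPKM in Cre 2 and 1.91 to 2.76 FPKM in the other Cre libraries. Foxn1, a factor of shaft differentiation, reached 3.02 FPKM in Cre 2 and was at 2.52 to 2.81 FPKM in the other 3. Of 18 other structural genes of the shaft and inner sheath that reached 1 FPKM, 2 were highest in Cre 2. The hair keratins of this list, Krt33a, Krt33b and Krt40, stayed under 1 FPKM and so were not counted. They were at 0.881, 0.819 and 0.111 FPKM in Cre 2 and at most 0.134, 0.0686 and 0 FPKM in the other skin libraries. Tchh, which encodes trichohyalin of the inner root sheath, reached 2.46 FPKM in Cre 2 and was at 0.791 to 1.29 FPKM elsewhere. Of 20 genes of dividing cells, 11 melanocyte genes and 13 dermal papilla genes that reached 1 FPKM, 0 were highest in Cre 2. The labels record neither the hair cycle stage nor the handling of each ear, and no part of either in the level of Cre 2 was tested. In bulk tissue, more follicle cells of a kind and more RNA per cell cannot be told apart.

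Ablation of the MrgprD neurons was examined by setting DTR skin against Cre skin. Of the 73 genes, only the 4 above the floor were tested (limma on log2(FPKM + 1), 4 against 4 libraries, adjusted over 12607 genes). One of the 4, Krtap3-2, was higher in DTR skin and none was lower. Of all genes tested, 7.38% were higher and 6.25% lower.

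Krtap3-2, a KAP of the high-sulphur kind, was at 24.2, 24.7, 19.3 and 23.1 FPKM in Cre replicates 1 to 4 and at 29.9, 29.2, 26.3 and 26.9 FPKM in DTR replicates 1 to 4. The groups did not overlap, and 11.8% of all genes tested were higher in DTR skin without overlap. The means were 22.8 ± 2.43 and 28.1 ± 1.79 FPKM (SD, n = 4 each), a log2 change of 0.29 ± 0.075 (SE) on the log2(FPKM + 1) scale, with a limma adjusted p of 0.0310. The call was lost without Cre 4 (adjusted p = 0.0580), without DTR 1 (0.0801) or DTR 2 (0.0829), and with no floor on low genes (0.0659). The change stayed positive in all 17 alternatives, and without Cre 2, the library that stood apart, it was 0.33 (limma adjusted p = 0.0348).

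Krtap3-3, its neighbour, was at 4.11, 7.32, 3.17 and 4.83 FPKM in Cre replicates 1 to 4 and at 5.42, 4.05, 4.08 and 3.86 FPKM in DTR replicates 1 to 4. The groups overlapped, and the log2 change was -0.09 ± 0.18 (SE; limma adjusted p = 0.752). Its highest Cre value was in Cre 2, and without that library the change was 0.09 (adjusted p = 0.658). Transcripts of Krtap3-2 and Krtap3-3 are 98.7% identical over 373 bases, so the split of reads between the 2 genes is uncertain. The ratio of their levels was 3.37 to 6.08 in Cre, 5.52 to 7.23 in DTR, 3.12 to 3.98 in PBS and 2.78 to 3.55 in β-alanine skin.

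Krt32, a type I hair keratin of the shaft cuticle, was at 1.67, 2.01, 1.28 and 1.02 FPKM in Cre replicates 1 to 4 and at 0.991, 1.27, 1.27 and 1.19 FPKM in the DTR replicates. Its log2 change of -0.18 ± 0.12 (SE) did not pass the test (limma adjusted p = 0.305), and without Cre 2 it was -0.08 (adjusted p = 0.618). Krt75, the companion layer keratin, was at 4.26, 4.44, 4.39 and 3.38 FPKM in Cre replicates 1 to 4 and at 5.40, 4.60, 4.60 and 4.10 FPKM in the DTR replicates. Its log2 change was 0.15 ± 0.087 (SE; limma adjusted p = 0.257). For both genes the 2 groups overlapped.

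**Figure D4:**
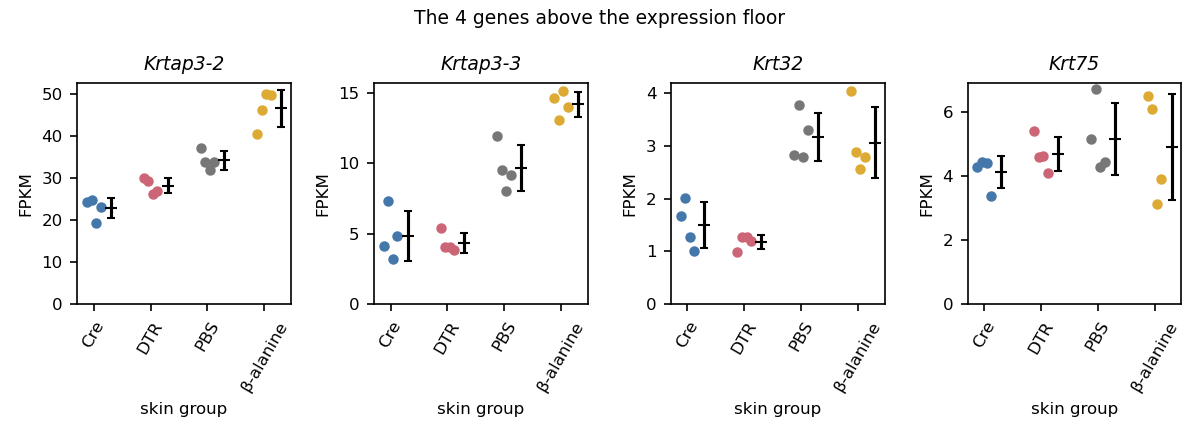
Each point is the FPKM of 1 ear skin library and the bar beside each group is its mean ± SD (n = 4). Krtap3-2 and Krtap3-3 are highest in β-alanine skin (46.5 and 14.2 FPKM on average), and Krt32 is lower in both Cre and DTR skin than in PBS and β-alanine skin.

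Other genes of the follicle passed the test in some cases, and the counts are read against the 7.38% of all genes that were higher and the 6.25% that were lower. Among 22 tested regulators of matrix and shaft, 5 were higher and 1 lower in DTR skin, with a median log2 change of 0.08 beside 0.01 over all genes. Foxq1, a factor of shaft structure, had a log2 change of 0.33 ± 0.064 (SE; limma adjusted p = 0.0125). Axin2, a target of WNT signalling, had one of 0.22 ± 0.045 (adjusted p = 0.0152). Among 15 other structural genes, 3 were higher and 2 lower. Tgm3, the transglutaminase that cross-links follicle proteins, averaged 10.3 ± 0.749 FPKM over the Cre libraries and 15.1 ± 1.74 FPKM over those of DTR mice (SD, n = 4 each; log2 change 0.50, limma adjusted p = 0.00451). Psors1c2 was lower in DTR skin (log2 change -0.43 ± 0.085 SE, limma adjusted p = 0.0130). Of 20 bulge genes tested, 2 were higher (Sox21 and Lhx2), and of 12 dermal papilla genes 1 was higher (Sostdc1), shares near those of all genes. Of 11 melanocyte genes 0 passed the limma test and 1 had an unadjusted p under 0.05, which 32.1% of all genes had.

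Genes of other cell types passed the test in this comparison too. All 10 tested mast cell genes were higher in DTR skin, with a median log2 change of 0.91, and their list summed to 204 to 249 FPKM there and 70.3 to 91.6 FPKM in Cre skin. Of 12 adipocyte genes, 11 were lower in DTR skin, and their summed level was 303 to 364 FPKM there and 627 to 748 FPKM in Cre skin. Of 13 tested skeletal muscle genes, 10 were lower and 1 higher, with sums over the list of 1131 to 1526 FPKM in DTR and 1984 to 4686 FPKM in Cre skin. Of 20 genes of dividing cells, 9 were higher (sums of 197 to 221 against 177 to 187 FPKM). No gene of these 4 lists was at 0 throughout either group. Their part in the change of Krtap3-2 was not tested.

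The effect of β-alanine was examined by setting β-alanine skin against PBS skin. None of the 4 genes passed the test in either direction, where 0.0157% of 12709 genes tested were higher and 0.197% lower. By limma at an unadjusted p under 0.05 the count was 2 of the 4, both higher, beside 9.81% of all genes in either direction. Both Krtap3 genes were nevertheless higher in each β-alanine library than in any PBS library, as were 0.866% of genes tested.

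Krtap3-2 was at 37.1, 33.9, 31.8 and 33.6 FPKM in PBS replicates 1 to 4 and at 40.5, 46.1, 50.0 and 49.6 FPKM in β-alanine replicates 1 to 4. Its log2 difference was 0.43 ± 0.080 (SE; limma adjusted p = 0.0812). The call was gained with the spread shared by all 4 skin groups (adjusted p = 0.0132) and without β-alanine 1 (0.0203). Krtap3-3 was at 11.9, 9.54, 8.0 and 9.17 FPKM in PBS and at 14.6, 13.05, 15.1 and 13.96 FPKM in β-alanine replicates 1 to 4. Its log2 difference was 0.52 ± 0.10 (SE; limma adjusted p = 0.111), and 0.62 without PBS 1 (adjusted p = 0.0413).

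Krt32 was at 2.82, 3.77, 2.79 and 3.30 FPKM in PBS and at 4.04, 2.88, 2.55 and 2.78 FPKM in β-alanine replicates 1 to 4, so the groups overlapped. Krt75 was at 5.14, 6.71, 4.26 and 4.45 FPKM in PBS and at 6.49, 6.08, 3.13 and 3.89 FPKM in β-alanine replicates 1 to 4. The log2 differences were -0.05 ± 0.12 and -0.09 ± 0.20 (SE), with limma adjusted p of 0.921 and 0.912. β-alanine 4, which had the second highest level of the low genes, was not the highest of its group in any of the 4 kept genes. None of 22 regulators of matrix and shaft, 16 other structural genes, 20 bulge genes and 13 dermal papilla genes passed the limma test in this comparison. At an unadjusted p under 0.05, which 9.81% of all genes reached, the counts were 6, 1, 3 and 0, all lower in β-alanine skin. Of 20 genes of dividing cells 9 reached it, all lower, and of 11 melanocyte genes 3, all higher. In both lists 0 genes passed the limma test after adjustment. Of 10 mast cell genes 7 were lower, and the summed level of that list was 5.08 to 8.51 FPKM in β-alanine and 215 to 264 FPKM in PBS skin, with 1 of 12 genes at 0 in all 4 β-alanine libraries. Its part in the levels of the Krtap3 genes was not tested.

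Whether a gene responded differently to ablation and to β-alanine was tested over the 16 libraries by an interaction term. None of the 4 genes passed, where 6.66% of 12995 genes did, and 1 of the 4 had an unadjusted limma p under 0.05, as did 24.9% of all genes. That gene was Krtap3-3, with a log2 change in DTR skin lower by 0.61 than that in β-alanine skin (-0.61 ± 0.23 SE, limma adjusted p = 0.111). Without Cre 3 the value was -0.76 and the adjusted p 0.0419. For Krtap3-2 the difference was -0.14 ± 0.11 (SE; adjusted p = 0.477), so the data do not tell the effects of the treatments on it apart.

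For 3 of the 4 genes the skin groups differed, mainly between the 2 sets of mice. These 3 passed limma's F test over the 4 groups (Krtap3-2, Krtap3-3 and Krt32, with adjusted p of 2.27e-07, 1.23e-06 and 7.65e-06), where 63.7% of 12995 genes did. Krt75 did not pass (adjusted p = 0.547). Set against PBS skin, Cre skin was lower in the same 3 genes, where 56.6% of 12707 genes differed and 40.2% were lower. The median log2 difference of all genes was -0.11 in this comparison, and differences are given relative to it. Krtap3-3 was lower by 0.79 (-0.79), Krt32 by 0.64 (-0.64) and Krtap3-2 by 0.45 (-0.45) beyond that median, and the limma adjusted p of the differences before this subtraction were 0.00256, 0.000677 and 0.000202. In these 3 genes every Cre library lay below every PBS library, as for 36.5% of all genes. Krt75 did not pass there (adjusted p = 0.101). Genes of some other lists were lower in Cre skin as well, beside the 40.2% of all genes: 14 of 23 tested of the interfollicular epidermis, 9 of 16 other structural genes of shaft and sheath (median log2 difference -0.62), 8 of 10 of mast cells, 7 of 14 of muscle and 6 of 12 of adipocytes. Regulators of matrix and shaft had 11 of 22 lower and 3 higher, dividing cells 12 of 20 and 0, and dermal papilla 5 of 13 and 2. Bulge genes had 5 of 20 lower and 5 higher, sebaceous gland genes 7 of 18 and 5, and melanocyte genes 0 of 11 and 3. Their part in the differences of the 3 genes was not tested. Cre and PBS skin differ in strain, Mrgprd allele and vehicle and may differ in toxin exposure. These cannot be told apart here, and the labels do not give handling.

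The group order of Krtap3-2 was β-alanine (46.5 ± 4.39 FPKM), PBS (34.1 ± 2.21), DTR (28.1 ± 1.79) and Cre (22.8 ± 2.43 FPKM; SD, n = 4 each), and no neighbouring groups overlapped. For Krtap3-3 it was β-alanine (14.2 ± 0.874 FPKM), PBS (9.66 ± 1.64), Cre (4.86 ± 1.78) and DTR (4.35 ± 0.718 FPKM), and the last pair overlapped. For Krt32, PBS (3.17 ± 0.460 FPKM) and β-alanine (3.06 ± 0.664) overlapped, as did Cre (1.49 ± 0.438) and DTR (1.18 ± 0.130 FPKM), and the first pair did not overlap the second. For Krt75 the 4 group means lay between 4.12 and 5.14 FPKM and all neighbours overlapped. Of all genes tested, 0.866% were higher without overlap in β-alanine than in PBS skin, and 11.8% in DTR than in Cre skin. Cre skin was lower than PBS skin without overlap in 36.5%. No such share was computed for DTR against PBS skin or for the 4 groups together.

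The non-member genes whose centred log2 profile over the 16 libraries was most like the mean of the 4 genes were Elmod1 (root mean square difference 0.117), Ccrl1 (0.120) and Rpl31 (0.121), out of 3135 candidates. The likeness was the ground of their choice and carries no test.

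In mast cell libraries the summed level of the genes below the floor overlapped skin in sorted cells and was lower in cultured ones. The 69 genes below the floor summed to 0.965 to 5.23 FPKM in the 8 sorted libraries, highest in Cre replicate 3, which overlaps the 2.62 to 6.39 FPKM of the 14 skin libraries, and to at most 0.513 FPKM in the 16 cultured ones. The FPKM of all rows summed to 117574 to 197003 in a sorted library and to 427797 to 508485 in a skin library, so these sums are parts of unlike totals. In sorted Cre replicate 3, 83.9% of all rows were above 0, against 72.2% to 74.3% in skin. Only 2 of the 69 genes, Krt86 and Krt81, were above 0 in each library cultured for 6 h. Krt86 was at 0.194 to 0.505 FPKM there, against at most 0.137 FPKM in skin outside Cre 2. The highest value of a single gene below the floor in mast cell libraries was 0.870 FPKM, for Krtap21-1. Krtap3-2 was at most 0.127 FPKM and Krt75 at most 0.182 FPKM in any mast cell library, far below their levels in skin.

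**Figure D5:**
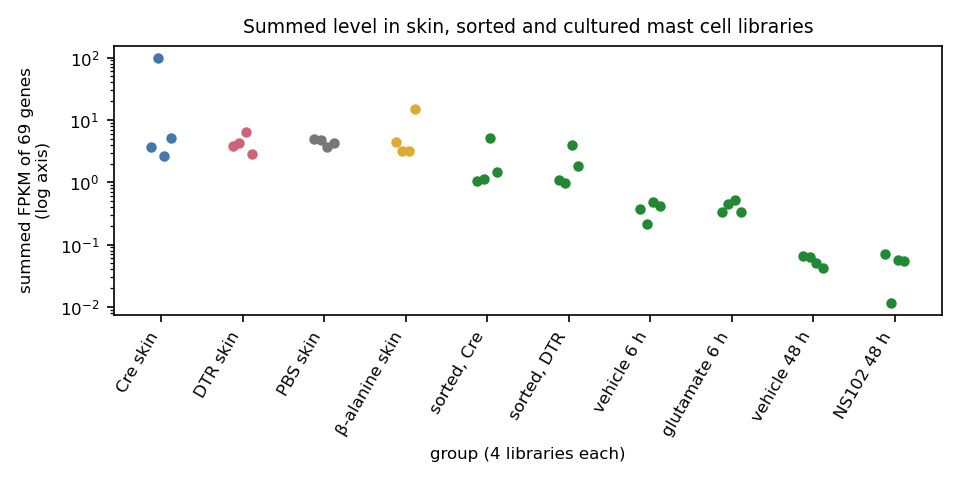
Each point is the summed FPKM (log axis) of the 69 genes below the floor in 1 library, for 4 skin, 2 sorted mast cell and 4 cultured mast cell groups of 4 libraries. Cultured libraries lie at or below 0.513 FPKM, sorted ones between 0.965 and 5.23 FPKM, and Cre 2 skin at 99.6 FPKM.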

How the data were processed

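Gene expression was taken from the deposited table of 40 libraries, all of whose columns matched a sample. The deposited values are FPKM. The submitters' processing notes name STAR, Cufflinks and build mm9, without versions, as what the authors used. Strand handling, annotation, filters and the treatment of reads that fit several genes are not given in the sources used here. FPKM keep no counts, so depth is unknown and no counting interval is given. Which libraries were single end and which paired end is not stated. The FPKM of a skin library summed to 427797 to 508485.

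The 73 genes, the classes and the gene lists were chosen with earlier results of these data known. KAP genes were grouped by chromosome, since protein sequences were not used. Genes that reached 1 FPKM in 4 or more of the 8 libraries (of 16 for the interaction and the F test) were tested on log2(FPKM + 1) with limma 3.58.1 in R 4.3.3 (moderated, mean-variance trend, two-sided), adjusted by Benjamini-Hochberg over all genes tested and called at an adjusted p under 0.05. The added 1 understates changes of low genes. Named by rule were the kept genes, those near the floor, up to 3 list genes past the test per list, and the 10 genes of most similar profile (at least 5 FPKM on average). Other names were chosen after their values were seen. The fit was tested on simulated data. Promoters came from RefSeq (GRCm38.p6) and transcripts from GENCODE, compared with Biopython 1.88 and blastn 2.17.0. No mm9 coordinate was joined to that build. Of the 73 genes, 71 had a transcript and 23 of these matched another of the set at 90% identity or more over at least 100 bases.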

Additional observations from a re-analysis of the deposited data

Results flagged for a closer look

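In groups of 4 libraries, 84 sets of values (4 groups of the 12 genes at or above 1 FPKM in at least 2 skin libraries, and of 9 sums) were searched for a library whose gap to the nearest other exceeded Dixon's 95% critical share of the range, and 31 had one. Chance flags about 1 in 20 if values are normally distributed, which was not checked for values near 0. A single value above 0 in a group otherwise at 0 is always flagged. The sums hold the genes, so the flags are not independent. Of the 31, 15 were Cre 2 and 10 were β-alanine 4, all high. Krt25, Krt27, Krt71, Krtap8-1 and Krtap7-1 reached 1 FPKM only in Cre 2 and β-alanine 4, and Krtap22-2 only in Cre 2 and Cre 4. The choice of genes thus favoured flags of these libraries, and their counts were partly set by it.

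Cre 2 stood out for Krt25 (4.23 FPKM), Krt27 (2.43), Krt71 (4.04), Krtap22-2 (7.83), Krtap8-1 (4.54) and Krtap7-1 (6.61 FPKM). It also did so for the sum of the 69 genes below the floor (99.6 FPKM) and for the sums of KAP genes on chromosome 10 (0.941), chromosome 11 (17.2), chromosome 16 (60.8) and chromosome 7 (2.06 FPKM). The same held for type I hair keratins (2.22), type II hair keratins (3.97), type I inner root sheath keratins (7.63) and type II inner root sheath keratins (4.82 FPKM). β-alanine 4 stood out for Krt25 (1.44 FPKM), Krt71 (1.17), Krtap8-1 (1.03) and Krtap7-1 (1.09 FPKM), and for the sum of the 69 genes (15.2 FPKM). Its sums of KAP genes on chromosome 10 (0.438), chromosome 11 (3.15), chromosome 16 (4.43) and chromosome 7 (0.260) and of type II inner root sheath keratins (1.45 FPKM) stood out as well.

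The remaining 6 were mostly small in absolute level. Krtap3-3 was high in DTR 1 (5.42 FPKM, next 4.08) and Krt75 was low in Cre 4 (3.38 FPKM, next 4.26). Krtap8-1 was at 0.0808 FPKM in DTR 3 and KAP genes of chromosome 7 summed to 0.0563 FPKM in DTR 1, with the other 3 DTR libraries listed at 0 in both cases. KAP genes of chromosome 11 summed to 0.419 FPKM in PBS 3, and type II inner root sheath keratins to 0.486 FPKM in PBS 4.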

How the results depend on the processing

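The 5 comparisons were recomputed with pseudocounts of 0.1 and 5, no floor, a floor of 5 FPKM, median centring, quantile normalization, no trend, a replicate block, a spread shared by the 4 skin groups and each library left out. Of the 4 genes, those higher in DTR skin numbered 1, and 0 with no floor. Leaving out a library gave 0 to 1 there (0 without Cre 4, DTR 1 or DTR 2). Those higher in β-alanine skin numbered 0, 1 with the shared spread and 0 to 1 on leaving out a library (1 without PBS 1 or β-alanine 1). The interaction gave 0, and 0 to 1 on leaving out a library (1 without Cre 3). No gene of the 4 was lower in DTR or β-alanine skin in any setting run. The F test and Cre against PBS skin gave 3 in every setting except the floor of 5 FPKM, where Krt32 was not tested and each gave 2. Over all genes, the calls in DTR against Cre skin numbered 1719, and 729 with the shared spread. Those in β-alanine against PBS skin numbered 27, and 130 with the shared spread. On leaving out a library these ran from 773 to 1512 and from 11 to 38, and those of the interaction, 866 with all libraries, from 375 to 1492. Signs turned in small values that passed no test. On leaving out a library, the log2 change of Krtap3-3 in DTR skin ran from -0.240 to 0.0921 (highest without Cre 2). In β-alanine skin Krt32 ran from -0.153 to 0.0214 (above 0 without PBS 2 or β-alanine 3) and Krt75 from -0.215 to 0.0709 (above 0 without the same libraries). With median centring Krt32 was at 0.0019. Same-numbered libraries correlated at -0.029 to 0.135 (DTR and Cre) and -0.156 to 0.368 (β-alanine and PBS), and the labels do not say what a number stands for, so the fit without the block was kept. With the replicate block 1 gene was higher in DTR skin (Krtap3-2, limma adjusted p = 0.0158) and 0 in β-alanine skin (Krtap3-2, adjusted p = 0.345). The cause of these changes was not tested. Values under 1 FPKM rest on few reads of unknown number, and a gene listed at 0 is not shown to be silent.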
